A study of Mus musculus with 4 samples.

Results

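Retinoid storage and retinoic acid genes are 7 genes that bind, esterify, reduce or oxidise vitamin A in the mouse: Lrat, Rbp2, Crabp2, Aldh1a1, Retsat, Dhrs3 and Adh1. They were listed by name with earlier results of these data known, so counts over them are a description, and every probe set that the platform annotation gives to 1 of them was taken. This gave 8 probe sets, 2 for Retsat and 1 for each of the others, out of 20380 probe sets annotated to 1 gene, for 12393 genes. Expression was measured in intestinal mucosa of male mice at 10 weeks of age, after 2 weeks on a high-fat or a low-fat diet. The groups were A/J high-fat, A/J low-fat, C57BL/6J high-fat and C57BL/6J low-fat. When fed fat, A/J mice are known to stay lean and C57BL/6J mice to become obese. Each group held 6 mice, and RNA of 2 mice close to the average body weight was combined for 1 Affymetrix Mouse Expression Array 430A, so the pools hold a part of each group.

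Vitamin A reaches the intestine as retinyl esters, which are hydrolysed to retinol, and as carotenoids, which enterocytes can turn into retinaldehyde. In the enterocyte, retinol is held by the carrier RBP2, esterified by LRAT and packed into chylomicrons for storage in the liver. Retinol is oxidised to retinaldehyde by alcohol and retinol dehydrogenases, and retinaldehyde to retinoic acid by ALDH1A enzymes. Retinaldehyde reductases such as DHRS3 run the first of these steps backwards. Retinoic acid, carried by CRABP2 to its nuclear receptors, is known to raise Lrat and Dhrs3 in several tissues.

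A signal that could be measured was obtained for 6 of the genes, all but Crabp2. The C57BL/6J low-fat array was the lowest of the 4 for 6 of 6 genes, as for 27.4% of all measured genes. The 6 genes were higher in A/J than in C57BL/6J on each diet, where 54.4% of all measured genes were higher in A/J between the high-fat arrays and 52.0% between the low-fat arrays. Of the 6, the strain ratio was largest for Lrat, at 2.58-fold between the high-fat arrays and 4.76-fold between the low-fat arrays. The largest diet ratio was that of Aldh1a1 in C57BL/6J, at 3.35-fold. Values are the deposited signals after each array was scaled to a trimmed mean of 500, with any signal below 100, the floor, raised to 100 before ratios were formed. Lrat on C57BL/6J low-fat, at 131, was close to this floor, so its 4.76-fold ratio rests on a weak signal. Genes whose scaled signal averaged 100 or more are called measured, and there were 8036. With 1 array in each group, a ratio of 2 arrays has no replicate check and no test, and the number of arrays limits its precision.

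A scaled signal of at least 100 was reached by 58.6% to 60.3% of probe sets, depending on the array. Enterocyte markers were close to equal on the 4 arrays: 9 of 11 were found and measured, and their summed scaled signals were 173677 on high-fat and 178454 on low-fat in A/J, against 180070.4 on high-fat and 177425 on low-fat in C57BL/6J. Markers of the proximal small intestine, 6 of 7 of which were found, summed to between 43184 and 45047. Lct and Fabp1, which are also enterocyte markers, make up most of this sum. Cybrd1 was the 1 proximal marker past 2-fold in a comparison, with a log2 ratio of high-fat to low-fat of -1.10 in C57BL/6J. Between the low-fat arrays, Lct had a log2 ratio of A/J to C57BL/6J of 0.62, where the median of the proximal markers was -0.04. Of 5 distal markers found, Fabp6, Slc10a2 and Fgf15 were under the floor on all arrays. The 5 summed to 5544 on high-fat and 3740 on low-fat in A/J, against 4215 on high-fat and 5460 on low-fat in C57BL/6J. Colon markers, 5 of 6 found, summed to 5232 on high-fat and 3451 on low-fat in A/J, against 3204 on high-fat and 2173 on low-fat in C57BL/6J. Car1 and Hoxb13 among them were under the floor on all arrays. Slc26a3 and Car4 make up most of the colon sum. It was lowest on C57BL/6J low-fat, as the 6 genes were, while the distal sum was lowest on A/J low-fat. The part of intestinal region in the values of the 6 genes was not tested. Exocrine pancreas and stomach markers differed widely between arrays, and so did the 18S ribosomal RNA control, as given below beside the results they move with. In these bulk samples, fewer cells of a type and less RNA per cell cannot be told apart.

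Promoter sequence is shown for 4 of the genes, since retinoic acid and fatty acids act on genes through nuclear receptors. These receptors bind pairs of a half-site, with AGGTCA as the textbook form. The RefSeq table of promoters (GRCm38.p6) matched 6 of the 7 genes with 9 windows, each 250 bases before to 50 bases after a start site. Both strands were searched for 4 half-site forms, the textbook AGGTCA, the variants GGGTCA and AGTTCA, and the further variant GGTTCA. Capitals below mark each match, read on either strand, in the 250 bases before the start, written 5′ to 3′ on the strand of the gene. Rbp2, Retsat and Aldh1a1 are shown because a window of each held a half-site, and Lrat because it had the largest strain ratio and held none. The Rbp2 window is chr9:98490287-98490536 on the plus strand, and that of Retsat is chr6:72598352-72598601 on the plus strand. Aldh1a1 has 2 start sites in the table, and the downstream one is shown, chr19:20601718-20601967 on the plus strand. The Lrat window is chr3:82903975-82904224 on the minus strand.
Rbp2: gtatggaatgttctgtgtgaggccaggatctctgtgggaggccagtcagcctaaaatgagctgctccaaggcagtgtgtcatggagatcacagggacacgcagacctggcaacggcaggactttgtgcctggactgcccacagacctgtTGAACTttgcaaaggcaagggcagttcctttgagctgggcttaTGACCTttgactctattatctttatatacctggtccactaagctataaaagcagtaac
Retsat: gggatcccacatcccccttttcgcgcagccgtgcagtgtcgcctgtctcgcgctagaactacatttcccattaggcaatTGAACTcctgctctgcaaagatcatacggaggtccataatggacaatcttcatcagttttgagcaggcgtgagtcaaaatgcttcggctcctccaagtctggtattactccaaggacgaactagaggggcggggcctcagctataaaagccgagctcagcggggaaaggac
Aldh1a1: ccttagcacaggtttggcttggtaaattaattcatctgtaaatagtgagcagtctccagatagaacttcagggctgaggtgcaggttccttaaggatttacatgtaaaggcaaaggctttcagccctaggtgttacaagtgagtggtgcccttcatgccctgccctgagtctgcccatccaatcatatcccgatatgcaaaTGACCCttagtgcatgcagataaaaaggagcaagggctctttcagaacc
Lrat: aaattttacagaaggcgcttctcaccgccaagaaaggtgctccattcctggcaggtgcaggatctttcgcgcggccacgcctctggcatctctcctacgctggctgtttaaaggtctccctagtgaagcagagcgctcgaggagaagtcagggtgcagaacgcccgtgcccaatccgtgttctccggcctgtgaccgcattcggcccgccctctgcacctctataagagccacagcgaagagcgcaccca

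Rbp2 held an AGTTCA half-site whose leftmost base lay at position -101 from the start and an AGGTCA half-site at -58. Retsat held AGTTCA at -171, and Aldh1a1 held GGGTCA at -49. No 2 matches overlapped. Across all 32851 windows of this length in the table, AGGTCA was present in 16.3%, GGGTCA in 13.7%, AGTTCA in 14.0% and GGTTCA in 10.4%. At least 1 of the 4 was present in 43.7% of all windows and in 3 of the 9 windows of these genes. Direct repeats of AGGTCA spaced by 1, 2 and 5 bases were in 13, 3 and 3 of all windows and in 0 windows of these genes. Only exact copies of AGGTCA were counted, so repeats with a variant half-site were not looked for. A TATA box, TATAAA on the strand of the gene, was found in Rbp2 and Retsat and in 8.32% of all windows. A match describes the letters only and is not a binding site.

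Lrat, lecithin retinol acyltransferase, makes the retinyl esters in which vitamin A is stored. Its scaled signal was 516 on high-fat and 624 on low-fat in A/J, against 200.2 on high-fat and 131 on low-fat in C57BL/6J. Both A/J arrays were above both C57BL/6J arrays, so the strain groups did not overlap, while the diet groups did. With diet, the gene was 1.21-fold lower on high-fat in A/J and 1.53-fold higher on high-fat in C57BL/6J. Its C57BL/6J low-fat signal was close to the floor, with a deposited value of 42.6, under that array's median of 48.5. With a floor of 200, the mean diet effect on the log2 scale turned to -0.14, from 0.17. Of the other genes that can esterify retinol, Dgat1, an acyltransferase known mainly for triglyceride synthesis, had 15101 and 15096 on A/J high-fat and low-fat and 13859 and 14925 on C57BL/6J high-fat and low-fat. Its ratios stayed within 1.09-fold in all 4 comparisons, by a probe set that may also bind other transcripts.

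Rbp2, the cellular retinol-binding protein of the enterocyte, had a scaled signal of 18249.7 on high-fat and 17105 on low-fat in A/J, against 17045 on high-fat and 10382 on low-fat in C57BL/6J. The first 3 arrays lay within 1.07-fold of one another in each comparison between them that shares a strain or a diet, and C57BL/6J low-fat was lower. It was 1.64-fold higher on high-fat in C57BL/6J and 1.65-fold higher in A/J on low-fat, and these ratios share the C57BL/6J low-fat array. One of its half-sites in the promoter shown above, AGGTCA, has the textbook form.

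Crabp2, which carries retinoic acid to the nucleus, was not detectable. Its scaled signals were 4.77, 5.44, 4.78 and 3.38 on A/J high-fat, A/J low-fat, C57BL/6J high-fat and C57BL/6J low-fat, all far under the floor, so it has no ratio and enters no count. The related retinoic acid carrier Crabp1 was under the floor on all 4 arrays too. Fabp5, a fatty acid carrier also known to carry retinoic acid, had 286 and 302 on A/J high-fat and low-fat, against 191 and 275 on C57BL/6J high-fat and low-fat. Rbp7, a retinol carrier known from fat tissue and endothelium, ran opposite to Rbp2 between strains, with 237 and 328 in A/J high-fat and low-fat and 428 and 508 in C57BL/6J high-fat and low-fat.

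Dhrs3 reduces retinaldehyde back to retinol and so limits retinoic acid. It had a scaled signal of 426 on high-fat and 452 on low-fat in A/J, against 299 on high-fat and 252 on low-fat in C57BL/6J. As for Lrat, the strains did not overlap and the diet ratios had opposite signs, 1.06-fold lower on high-fat in A/J and 1.18-fold higher in C57BL/6J. These diet ratios were small, and without scaling between arrays that of the mean over both strains changed sign. Dhrs4, another reductase of retinaldehyde, was higher on high-fat in both strains, at 3352 against 2009 in A/J and 1911 against 1284 in C57BL/6J.

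Retsat, retinol saturase, converts retinol to dihydroretinol. Its brightest probe set had a scaled signal of 6521 on high-fat and 4121 on low-fat in A/J, against 2651 on high-fat and 1411 on low-fat in C57BL/6J. Its other probe set had 1639.7 and 717 on the A/J high-fat and low-fat arrays and 619 and 317 on the C57BL/6J ones. Both probe sets put the 4 arrays in the same order, with A/J above C57BL/6J and high-fat above low-fat within each strain. High-fat over low-fat was 1.58-fold in A/J and 1.88-fold in C57BL/6J by the brightest probe set, and 2.29-fold and 1.95-fold by the other. The probe sets therefore differ on which strain had the larger diet ratio.

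Adh1, an alcohol dehydrogenase that oxidises retinol and is known for clearing it when in excess, had a scaled signal of 14313 on high-fat and 13957 on low-fat in A/J, against 10898 on high-fat and 7146 on low-fat in C57BL/6J. The A/J arrays were within 1.03-fold of each other and above both C57BL/6J arrays. High-fat was 1.53-fold higher in C57BL/6J, and A/J was 1.95-fold higher on low-fat and 1.31-fold higher on high-fat. Adh4, listed as a retinol-oxidising dehydrogenase, differed more. Its gene lies near Adh1 on chromosome 3, with 2 protein-coding genes between them in the RefSeq order. The scaled signals of Adh4 were 2529.98 and 1463 on A/J high-fat and low-fat, against 689.6 and 310.3 on C57BL/6J high-fat and low-fat. Adh5, in the same cluster, differed by at most 1.54-fold in the 4 comparisons, and Adh7, with 0 protein-coding genes between it and Adh1, by at most 1.21-fold.

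Aldh1a1 oxidises retinaldehyde to retinoic acid. It had a scaled signal of 6206 on high-fat and 3277 on low-fat in A/J, against 3424 on high-fat and 1023 on low-fat in C57BL/6J. Here the diet groups came close without overlapping, since C57BL/6J high-fat lay just above A/J low-fat, and the strain groups overlapped for the same reason. Without scaling these arrays changed places, with deposited signals of 1003.9 and 1205.5, so that the diet groups overlapped and the strain groups did not. High-fat was 1.89-fold higher in A/J and 3.35-fold higher in C57BL/6J. Aldh1a7, its close relative and direct neighbour on chromosome 19, had the same order of arrays by scaled signal. It had 2077 and 923 on A/J high-fat and low-fat and 1557 and 439 on C57BL/6J high-fat and low-fat. Its strain ratio on high-fat was 1.33-fold, against 1.81-fold for Aldh1a1. Because the genes are closely related, the probes of one may also bind the RNA of the other, which was not tested. Of the other genes listed as retinaldehyde-oxidising, Aldh1a2 was under the floor on all arrays and Aldh1a3 lay between 141 and 242.

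**Figure D1:**
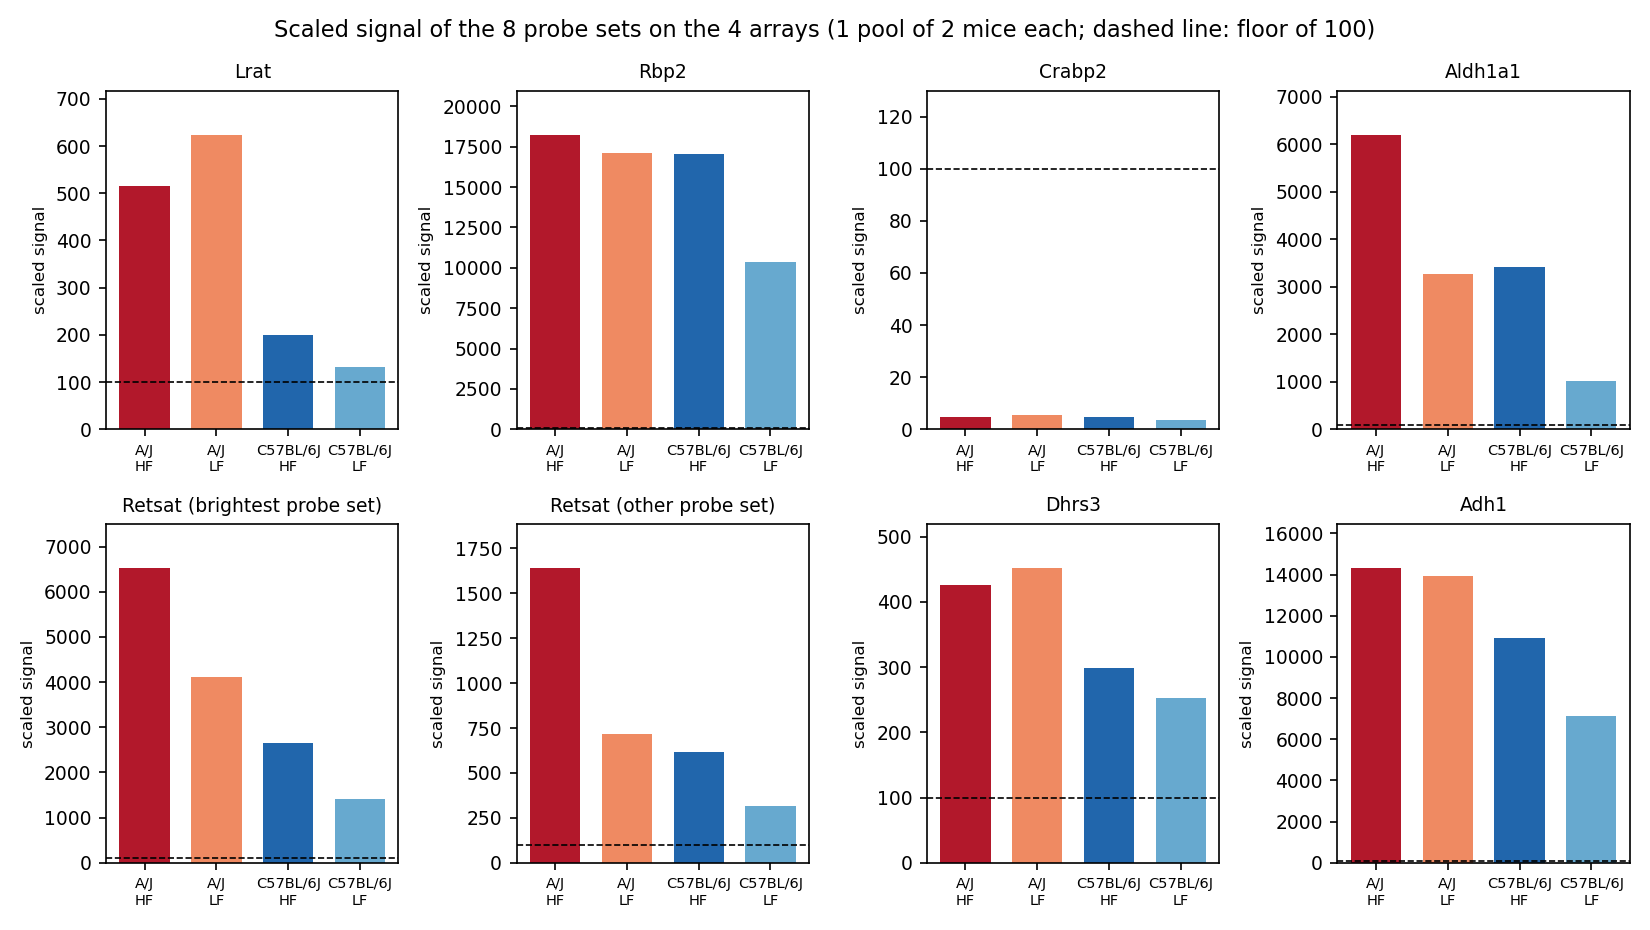
Scaled signal (vertical axis, linear from 0, no unit) of the 8 probe sets, 1 panel each, on the A/J high-fat (HF), A/J low-fat (LF), C57BL/6J HF and C57BL/6J LF arrays, with 1 bar for each array and no error bar because there is 1 array in each group. The last bar is the lowest in every panel, and in the Crabp2 panel all bars lie far under the dashed floor of 100.

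The question of the diet comparison within each strain was how the mucosa responds to dietary fat in obesity-resistant A/J and obesity-prone C57BL/6J mice. In C57BL/6J, all 6 genes were higher on high-fat, where 48.1% of all measured genes were, 5 of them by at least 1.5-fold, where 5.13% of all measured genes were that much higher. Aldh1a1 was the 1 gene at least 2-fold higher, against 1.02% of all measured genes, and 0 were at least 2-fold lower, against 0.672%. Lrat, Adh1 and Rbp2, at 1.53-fold, 1.53-fold and 1.64-fold, lay close to the 1.5-fold limit, and the 5 genes past it became 2 without scaling between arrays and 3 after a shift, chosen after seeing the data, that made the mean of the enterocyte markers equal on all arrays. The median log2 ratio was 0.66 over the 6 genes and -0.01 over all measured genes. In A/J, 0 of the 6 were at least 2-fold higher or lower, where 0.796% and 1.05% of all measured genes were. Only Aldh1a1 and Retsat were at least 1.5-fold higher there, against 4.99% of all measured genes, and the median log2 ratio was 0.06. In A/J, 4 of the 6 were higher on high-fat by any amount, against 50.9% of all measured genes. Rbp2, Aldh1a1, Retsat and Adh1 were higher on high-fat in both strains, 4 of 6 against 26.8%. For Aldh1a1 alone, 1 of 6 against 14.1%, both high-fat arrays lay above both low-fat arrays. This separation rests on the scaling, since the deposited signal of Aldh1a1 was 1003.9 on C57BL/6J high-fat and 1205.5 on A/J low-fat. Lrat, Rbp2, Dhrs3 and Adh1 had A/J diet ratios between 1.21-fold lower and 1.07-fold higher.

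The log2 diet ratio of A/J minus that of C57BL/6J was below 0 for 6 of 6 genes by their brightest probe sets, as for 48.0% of all measured genes. It was -0.89 for Lrat, -0.82 for Aldh1a1, -0.62 for Rbp2, -0.57 for Adh1, -0.33 for Dhrs3 and -0.25 for Retsat. None of the 6 reached a 2-fold difference of ratios, which 2.13% of all measured genes did in that direction and 1.70% in the other. This difference leaves no residual degree of freedom and was not tested. The other Retsat probe set gave 0.23.

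**Figure D2:**
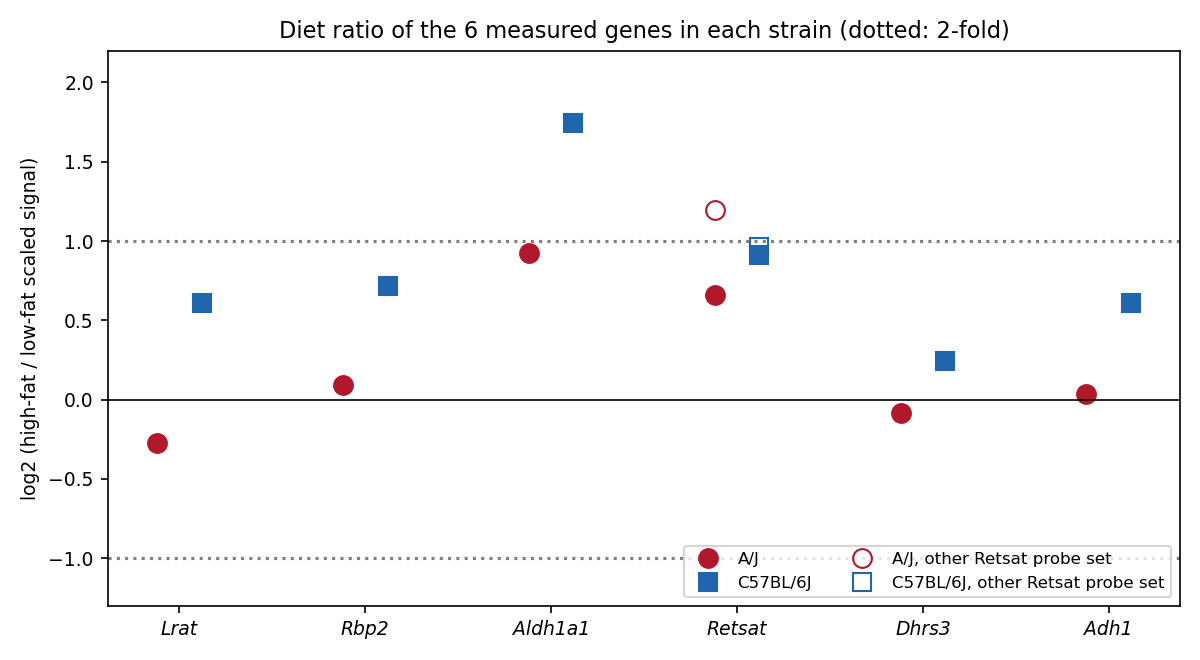
Log2 ratio of high-fat to low-fat scaled signal (vertical axis) of the 6 measured genes (horizontal axis), with circles for A/J and squares for C57BL/6J, 1 pair of arrays for each point, and open symbols for the other Retsat probe set. The square lies above the circle for every gene by the brightest probe set, from 0.24 against -0.08 for Dhrs3 to 1.74 against 0.92 for Aldh1a1, and the open Retsat symbols run the other way.

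The C57BL/6J low-fat array, on which the 6 genes were lowest, enters the C57BL/6J diet ratio and the low-fat strain ratio alike, so a low value there raises both, and these ratios are not separate evidence. On this array the 5' probe set of 18S ribosomal RNA had a scaled signal of 11009.7, against 84.4 and 218 on high-fat and low-fat in A/J and 1675 for high-fat C57BL/6J mice. T cell markers, 8 of 8 found, summed to 3685 on high-fat and 2728 on low-fat in A/J, against 6333 on high-fat and 11434 on low-fat in C57BL/6J, with Cd2 under the floor on all. Gzma and Ccl5 make up most of these sums, and between the high-fat arrays the other 5 measured markers, Cd3d, Cd3e, Cd3g, Cd8a and Nkg7, were the other way round, with log2 ratios of A/J to C57BL/6J between 0.07 and 0.58. The part of 18S RNA and of T cells in the low values of these genes was not tested.

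Comparing the strains asks how the mucosa of obesity-resistant and obesity-prone mice differs on the same diet. Between the high-fat arrays, Lrat at 2.58-fold and Retsat at 2.46-fold exceeded 2-fold toward A/J, 2 of the 6 genes, where 1.93% of all measured genes were, and 3 of 6 were past 1.5-fold, against 8.37%. Between the low-fat arrays, 3 of 6 were past 2-fold, Lrat at 4.76-fold, Aldh1a1 at 3.20-fold and Retsat at 2.92-fold, against 3.0% of all measured genes, and 6 of 6 were past 1.5-fold, against 10.9%. In both comparisons 0 of the 6 were at least 2-fold lower in A/J, against 2.38% and 2.64%. The median log2 ratio of the 6 genes was 0.69 between the high-fat arrays and 1.26 between the low-fat arrays, and that of all measured genes 0.04 and 0.02. Lrat and Retsat, 2 of 6, were past 2-fold toward A/J on both diets, as were 1.12% of all measured genes. Both A/J arrays lay above both C57BL/6J arrays for 5 of 6 genes, all but Aldh1a1, as for 27.2% of all measured genes. For Rbp2 this rests on a signal of 17105 in low-fat A/J mice against 17045 in high-fat C57BL/6J mice. The count was 4 of 6 after the shift to equal enterocyte markers, 4 of the 5 with a value without shared probe sets, and 6 of 6 without scaling. Probe sets were taken as shared when their name ended in _s_at, _x_at or _a_at, the last being the ending for Dhrs3. The other Retsat probe set gave 2.65-fold between the high-fat arrays and 2.26-fold between the low-fat arrays, while the other 5 genes rest on 1 probe set each. Past 2-fold, 155 of all measured genes were higher in A/J and 191 lower on high-fat, and 241 higher and 212 lower on low-fat. Without scaling between arrays, which moves the log2 ratio of signals above the floor by 0.28 on high-fat and 0.18 on low-fat, these were 383 and 120, and 400 and 155, and 5 of the 6 genes were past 2-fold on low-fat.

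**Figure D3:**
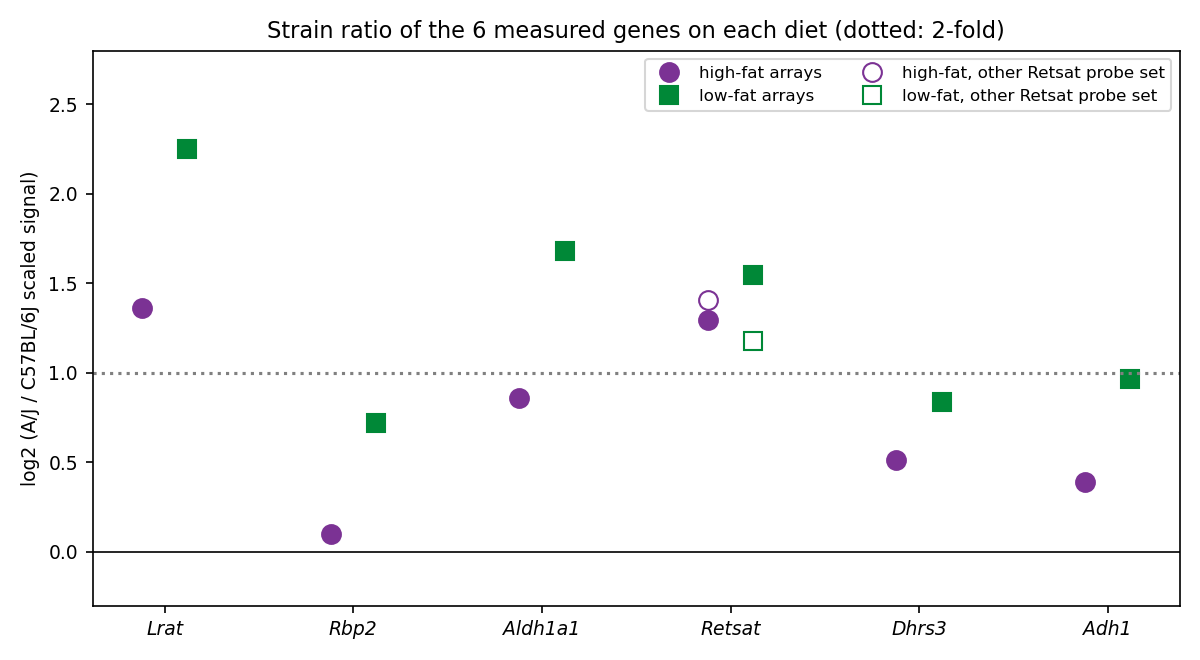
Log2 ratio of A/J to C57BL/6J scaled signal (vertical axis) of the 6 measured genes (horizontal axis), with circles for the high-fat arrays and squares for the low-fat arrays, 1 pair of arrays for each point, and open symbols for the other Retsat probe set. All points lie above 0, and the square lies above the circle for every gene by the brightest probe set, from 0.72 against 0.10 for Rbp2 to 2.25 against 1.37 for Lrat.

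The mean effects of strain and of diet were tested over all 4 arrays with limma, with strain and diet added and 1 degree of freedom left for the error, which was moderated over all genes. What the fit takes as error is how far the diet ratio differs between strains, so p-values measure no spread between pools of a group. For strain, 3 of 6 genes were higher in A/J at an adjusted p under 0.05, against 3.83% of all measured genes, and 0 were lower, against 3.68%. These shares are 308 and 296 genes, which became 620 and 144 without scaling. The log2 effect was 1.81 for Lrat (SE 0.233, limma adjusted p = 0.00043), 1.42 for Retsat (SE 0.198, limma adjusted p = 0.000731) and 1.27 for Aldh1a1 (SE 0.228, limma adjusted p = 0.00455). Each was higher in A/J on both diets. Dhrs3 at 0.68 (limma adjusted p = 0.0618), Adh1 at 0.68 (limma adjusted p = 0.0747) and Rbp2 at 0.41 (limma adjusted p = 0.299) did not pass the threshold. For diet, 1 of 6 genes rose on high-fat, against 0.423% of all measured genes, and 0 fell, against 0.187%. That gene was Aldh1a1, by 1.33 (SE 0.228, limma adjusted p = 0.0226), higher on high-fat in both strains. Retsat at 0.79 (limma adjusted p = 0.15), Rbp2 at 0.40 (limma adjusted p = 0.632), Adh1 at 0.32 (limma adjusted p = 0.741), Lrat at 0.17 (limma adjusted p = 0.906) and Dhrs3 at 0.08 (limma adjusted p = 0.96) did not pass. At an unadjusted p under 0.05, 5 of 6 genes were higher in A/J, against 12.2% of all measured genes, and 0 lower, against 9.36%. At the same unadjusted threshold for diet, 2 of 6 were higher on high-fat, against 4.87%, and 0 lower, against 4.48%. In a fit over 13431 probe sets, the other Retsat probe set was higher in A/J by 1.29 (limma adjusted p = 0.00831).

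The Aldh1a1 diet call held in 3 of 16 alternative fits, with adjusted p between 5.39e-05 and 1. In fits with 1 factor, its diet effect was 0.49 without the C57BL/6J low-fat array, 0.90 without A/J high-fat, 1.76 without C57BL/6J high-fat and 2.17 without A/J low-fat, and its strain effect was 0.40 without C57BL/6J low-fat and 2.14 without C57BL/6J high-fat. The strain calls held in 10 of 16 alternative fits for Lrat and in 9 of 16 for Retsat and for Aldh1a1. With strain as the only factor, leaving out any 1 of the 4 arrays left 0 of the 6 genes past the threshold, though Lrat stayed between 1.503 and 2.11 and Retsat between 0.97 and 1.88 higher in A/J. In such a fit, 3 arrays mix the strain and diet effects and leave a lone array in 1 group, which is taken to vary like the rest.

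By a list of 82 retinoid genes, 40 other genes were measured, out of 59 found on the array. Of these, 4 rose and 1 fell with diet, and 9 were higher and 4 lower in A/J by limma, where over all measured genes 0.423%, 0.187%, 3.83% and 3.68% were. The median log2 effect of the 40 was -0.01 for diet and 0.16 for strain, against -0.0037 and 0.04 over all measured genes. C57BL/6J low-fat was the lowest array for 20 of the 40, and for 27.4% of all measured genes. Of 15 alternative fits over genes, the diet calls of Lpl and Ces2a held in 3, those of Cd36 and Aldh1a7 in 5 and that of Bco1 in 8.

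Carotenoid uptake and cleavage genes differed widely between strains, and 3 of the 4 measured exceeded 2-fold toward A/J on both diets. Bco1, which splits beta-carotene into retinaldehyde, had a scaled signal of 1995 on high-fat and 9248 on low-fat in A/J, against 218 on high-fat and 662 on low-fat in C57BL/6J. It fell on high-fat, with a log2 effect of -1.91 (limma adjusted p = 0.00102) and was higher in A/J by 3.50 (limma adjusted p = 2.16e-06). Scarb1, a receptor that takes up carotenoids, had 3553 and 9018 in A/J high-fat and low-fat and 863 and 554 in C57BL/6J high-fat and low-fat. Cd36, a fatty acid receptor that also takes up carotenoids, had 2891 and 1193 in A/J high-fat and low-fat and 364 and 131 in C57BL/6J high-fat and low-fat, and rose on high-fat by 1.37 (limma adjusted p = 0.00624). Bco2, which cleaves carotenoids off centre in mitochondria, was lower in A/J, with a log2 effect of -1.45 (limma adjusted p = 0.000826).

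Retinyl ester hydrolysis genes include esterases of the mucosa and lipases of the pancreas. Ces2a, a carboxylesterase of the enterocyte, rose with high-fat by 0.996 on the log2 scale (limma adjusted p = 0.0455), and Lpl, lipoprotein lipase, by 1.05 (limma adjusted p = 0.0345), calls lost in 12 of the 15 alternative fits. With the mean of its probe sets, the log2 diet ratio of Lpl in A/J was 0.56, against 1.11 by the brightest. Its other probe set was under the floor on all arrays, so a ratio set to 0 entered that mean. By the brightest, Lpl had 389.9 and 180.5 on A/J high-fat and low-fat and 218.3 and 110.1 on C57BL/6J high-fat and low-fat. With a floor of 200, its log2 diet ratio was 0.96 in A/J and fell from 0.99 to 0.13 in C57BL/6J. Cel, the bile salt-stimulated lipase made by pancreatic acinar cells, had 129 on high-fat and 5679 on low-fat in A/J, against 9859.7 on high-fat and 5342 on low-fat in C57BL/6J. The exocrine pancreas markers, 8 of 10 found and measured and Cel among them, had summed signals of 2216 on high-fat and 78409 on low-fat in A/J, against 123001 on high-fat and 78749 on low-fat in C57BL/6J. Stomach markers, 6 of 7 found, summed to 1203 on high-fat and 2707 on low-fat in A/J, against 8281 on high-fat and 1415 on low-fat in C57BL/6J, with Muc5ac, Pgc and Cblif under the floor on all. Pnliprp2, a pancreatic lipase, had 357 and 1155 on high-fat and low-fat in A/J and 1812 and 1070 on high-fat and low-fat in C57BL/6J. Ces1d, a carboxylesterase, was under the floor on A/J high-fat and had 263 on A/J low-fat, so that it was at least 2.63-fold lower on high-fat there. Aadac, an esterase, had 5461 and 3201 on high-fat and low-fat in A/J and 4395 and 2311 on high-fat and low-fat in C57BL/6J. The part of other tissue in the values of the 6 genes was not tested.

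Among retinol dehydrogenases, Adh4 was higher in A/J by 2.06 on the log2 scale (limma adjusted p = 5.99e-05), and its diet effect of 0.97 did not pass (limma adjusted p = 0.0607). Rdh16, a retinol dehydrogenase, had 249.7 and 288 on A/J high-fat and low-fat and was under the floor on both C57BL/6J arrays, so on high-fat A/J was at least 2.50-fold higher and on low-fat at least 2.88-fold higher. Rdh10, the dehydrogenase needed for retinoic acid in the embryo, lay between 700.2 and 928 on all arrays. Aldh1a7, listed among the retinaldehyde-oxidising genes, rose with high-fat by 1.497 (limma adjusted p = 0.00649).

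Genes that break down, sense or respond to retinoic acid had mixed patterns. Cyp26a1, which degrades retinoic acid and is a sensitive target of it, was above the floor only on A/J high-fat, at 145, and had a mean under 100, so it is not among the measured genes. Cyp2s1, listed as a retinoic acid hydroxylase, had 1521 and 1652 on high-fat and low-fat in A/J, against 812 and 857 on high-fat and low-fat in C57BL/6J, and was higher in A/J past the limma threshold. Of the receptors, Rara, Rxra and Rxrb were measured, while Rarb and Rxrg were under the floor on all arrays and Rarg was above it only on C57BL/6J high-fat, at 155, and low-fat, at 128. Rxrb, a partner of the retinoic acid and fatty acid receptors, was 1.56-fold higher on high-fat in A/J and 1.58-fold in C57BL/6J, without passing the threshold (limma adjusted p = 0.233). Tgm2, a transglutaminase known to be induced by retinoic acid, had 1470.4 and 1800.1 on A/J high-fat and low-fat, against 3371 and 4807 on C57BL/6J high-fat and low-fat, and was lower in A/J, with a log2 effect of -1.31 (limma adjusted p = 0.00132). Of the 7 measured genes listed as responding to retinoic acid, Lrat was higher and Tgm2 and Itgb7 lower in A/J past the threshold. Dhrs3, Rarres2, Hic1 and Tshz1 did not pass. Itgb7 was under the floor on both A/J arrays, so its strain effect rests on signals raised to the floor. Its call held in 4 of 15 alternative fits, and that of Tgm2 in 7 of 14.

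**Figure D4:**
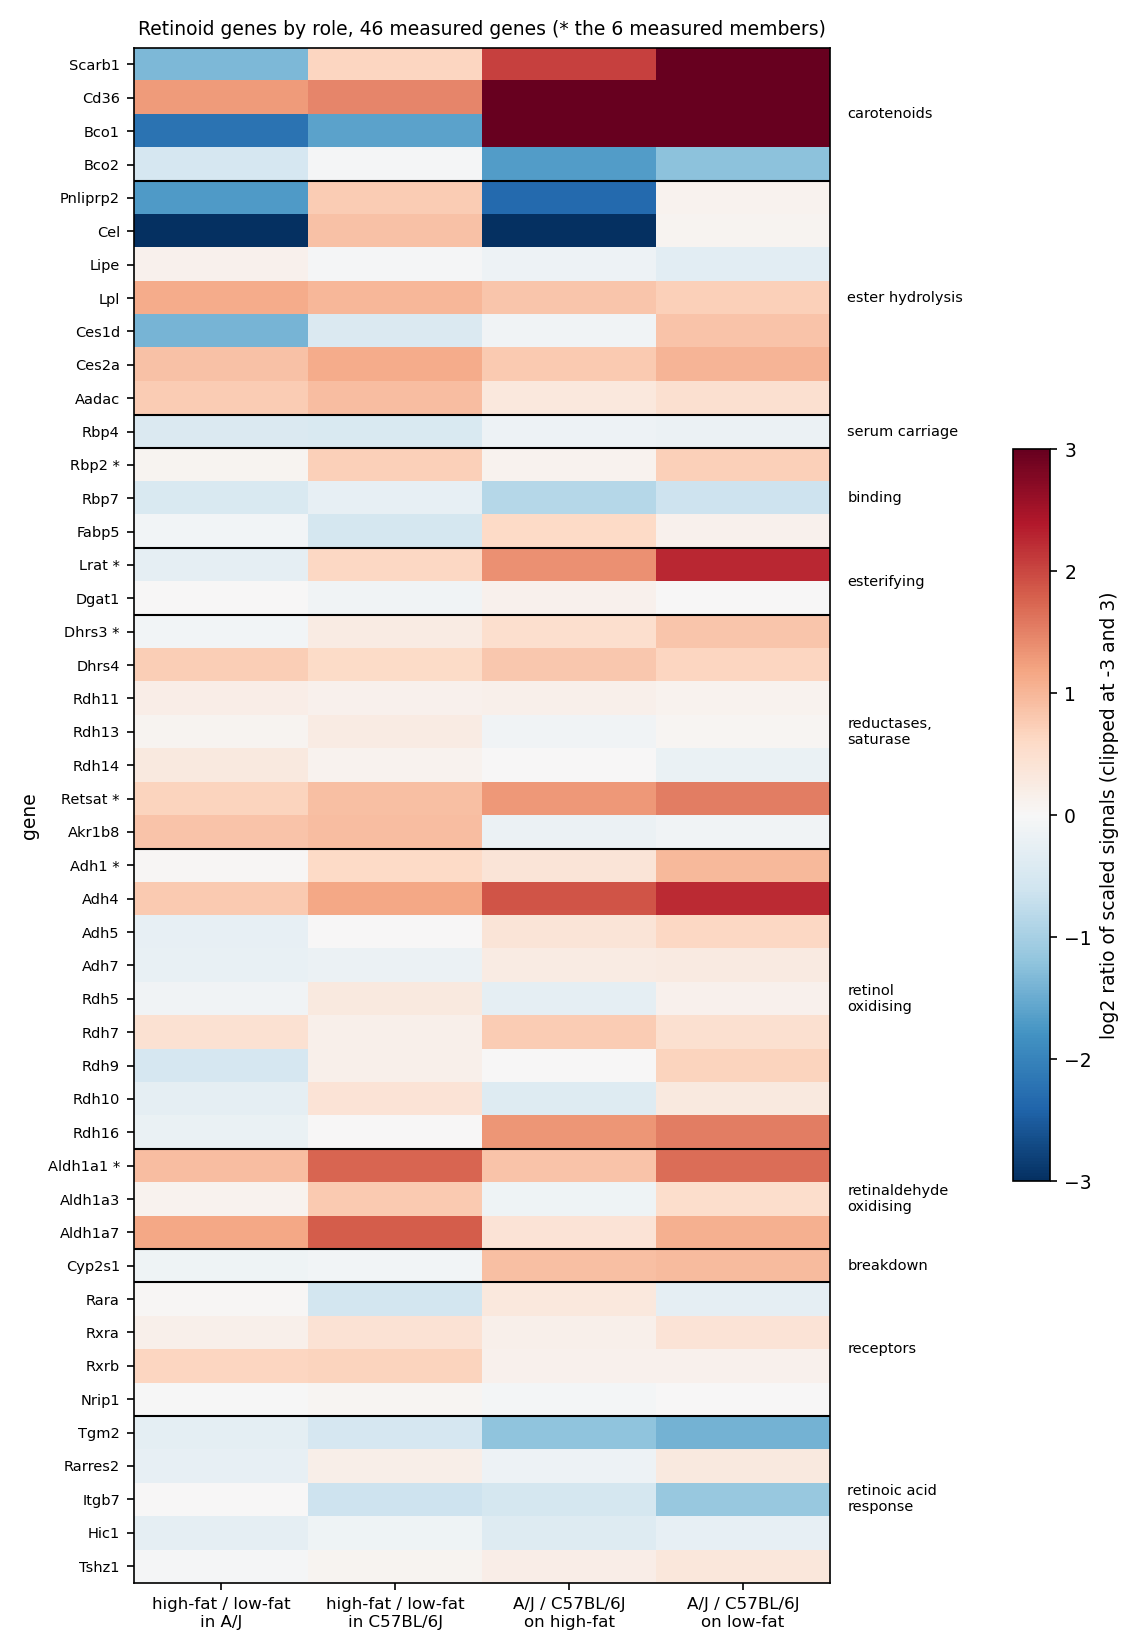
Log2 ratio of scaled signals (colour, clipped at -3 and 3; red higher, blue lower in the group named first) of the 46 measured retinoid genes (rows, by role, with a star on the 6 measured members) in 4 comparisons of 2 arrays (columns). The 6 starred rows are red in both strain columns, Rbp2 palest on high-fat at 0.10, while Bco2 and Tgm2 are blue there and Bco1 is blue in both diet columns.

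For the 4 genes whose signals were above the floor and spanned at least 2-fold, the 3 most similar patterns among measured genes outside the list were found by the Euclidean distance between log2 signals centred over the 4 arrays. For Lrat these were Nr1d2, a clock repressor, at 0.17, Mcpt2, a mast cell protease, at 0.29, and Scpep1, a serine carboxypeptidase, at 0.30. For Aldh1a1 they were Slc27a2, an acyl-CoA synthetase of very long chain fatty acids, at 0.30, Acadl, a dehydrogenase of fatty acid oxidation, at 0.41, and the glycerol channel Aqp7 at 0.45. For Retsat they were Egln3, an oxygen-sensing hydroxylase, at 0.20, the phosphate carrier Slc20a1 at 0.25 and Cyp4f16 at 0.31. For Adh1 they were Ikbkg at 0.04, Akap17b at 0.06 and Elmod3 at 0.07. A distance over 4 arrays describes these pools only, and Mcpt2, Aqp7 and Akap17b were under the floor on C57BL/6J low-fat.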

How the data were processed

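RNA pooled from 2 mice in each of 4 groups was hybridised to 1 array. Per the labels' protocols, the authors ran Microarray Suite 5.0 with its default settings, which sets perfect match against mismatch probes, and deposited 1 linear intensity for each probe set. The labels state no target to which arrays were scaled. The arrays list 22690 probe sets, 64 of them controls that were dropped. Of the remaining 22626, the platform annotation gives 20380 with 1 gene, 691 with several and 1555 with none, and only the first were used. Gene numbers of 20351 were found in the RefSeq table, and 0 symbols needed an update.

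Each array was scaled to a mean of 500, trimmed by 2% at each end, by factors between 2.72 and 3.41. Signals under 100 were set to 100 and log2 was taken. Where a gene has several probe sets, the brightest on average stood for it. limma 3.58.1 in R 4.3.3 was fitted over the 8036 measured genes with Benjamini-Hochberg adjustment, and was run on simulated data. The simulated errors were drawn from the fit itself, and the added effects did not differ between strains or diets. That run therefore does not check the calls reported here. Other steps used Python 3.11.15 with pandas 2.3.3 and matplotlib 3.10.9. The genes and lists were chosen with earlier results of these data known. Other genes of the list were named when at least 2-fold in a comparison or past the limma threshold, or among the 3 brightest of a role. The labels give no slide or scan date, so batches could not be examined. The alternatives were other scalings, floors of 50 and 200, a pseudocount of 50, other probe set rules, no filter, other limma models and leaving out each array.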

Additional observations from a re-analysis of the deposited data

Results flagged for a closer look

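These results were singled out because the diet ratio had opposite signs in the strains, which was not tested since each strain has 1 array on each diet. Lrat had log2 ratios of high-fat to low-fat of -0.28 in A/J and 0.61 in C57BL/6J, a difference of -0.89, and Dhrs3 had -0.08 and 0.24, a difference of -0.33. Scarb1 had -1.34 and 0.64, a difference of -1.98. The lipases Cel and Pnliprp2 had differences of -6.34 and -2.45, beside summed exocrine pancreas markers of 2216 on high-fat and 78409 on low-fat in A/J, and 123001 on high-fat and 78749 on low-fat in C57BL/6J. For Cel and Pnliprp2 the part of pancreatic tissue was not tested.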

How the results depend on the processing

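Of 212 alternative values of the members' log2 ratios, 1 changed sign, that of Adh1 between the diets in A/J, and 208 stayed on the same side of 2-fold. The limma calls depended more on the setting. For diet, genes that rose and fell among all measured genes, 34 and 15 as reported, were 16 and 5 with quantile normalization, 13 and 7 without scaling, 8 and 4 with a floor of 50, 73 and 30 with a pseudocount, 7 and 2 with the mean of all probe sets, 4 and 2 without shared probe sets, 18 and 5 over all probe sets, 58 and 25 scaled to enterocyte markers, and 83 and 40 with an intensity trend. They were 0 and 0 with a floor of 200, no filter or 1 factor. The 1 member that rose became 2 with a pseudocount or a trend, and 0 in every other setting but the enterocyte scaling. Of the other retinoid genes, 4 rose as reported, 2 with quantile normalization or no scaling, 7 with a pseudocount or enterocyte scaling, 8 with a trend and 0 in the rest that gave a count, and the 1 that fell was 0 with a floor of 200, no filter or 1 factor. For strain, genes higher in A/J, 308 as reported, were 203 with quantile normalization, 201 with the mean of probe sets, and 620, 168, 144 and 68 without scaling, with a floor of 50, without shared probe sets and with 1 factor. Genes lower in A/J, 296 as reported, were 185 with the mean of probe sets, and 144, 174, 140 and 76 in the same 4 settings. Both were 0 with a floor of 200 or no filter. Members higher in A/J numbered 5 without scaling or with a trend, 1 with 1 factor and 0 with a floor of 200 or no filter. The other retinoid genes higher in A/J were 2 with 1 factor, and those lower were 2 with quantile normalization or no scaling and 1 without shared probe sets or with 1 factor. These too were 0 with a floor of 200 or no filter. Leaving out 1 array gave 0 to 1 genes that rose and 0 to 14 that fell with diet, 14 of them without C57BL/6J high-fat, and 0 for the strain calls in all measured genes, the members and the other retinoid genes. It left 0 members and 0 other retinoid genes that rose with diet. The diet effect of Lrat turned to -0.14 with a floor of 200 and lay between -0.96 and 1.29 with 1 array left out, being -0.51 without A/J high-fat. That of Dhrs3 turned to -0.016 without scaling and lay between -0.34 and 0.50 with 1 array left out, being -0.18 without A/J high-fat. That of Adh1 lay between -0.16, without C57BL/6J low-fat, and 0.81 with 1 array left out. Ratio counts over all measured genes moved too. In A/J, genes at least 2-fold higher with diet numbered 98 with a floor of 50 and 40 with a floor of 200, and lower 47 with a floor of 200. In C57BL/6J, the lower ones were 100 without scaling and 25 with a floor of 200. Without scaling, 383 genes were higher and 120 lower in A/J on high-fat, with 10 of the other retinoid genes higher, and 400 were higher on low-fat, with 5 members. Members at least 1.5-fold higher with diet in C57BL/6J, 5 as reported, were 2 without scaling and 3 scaled to enterocyte markers, and on high-fat those past 1.5-fold toward A/J, 3 as reported, were 5 without scaling. Dhrs3 has no value without shared probe sets, since the name of its probe set ends in _a_at, and binding to other genes was not examined. The cause was not tested in any of these. No paired analysis was possible because each group has 1 array and the labels give no replicate numbers, and the additive limma fit already compares diets within strains and strains within diets. With no replicate arrays, signal over background and array number limit all values.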
